A study of Homo sapiens with 6 samples.

Results

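Introns that were retained less often after shRNA against ZRSR2 were taken from RNA-seq tables of K562 cells, a human leukaemia line with erythroid and megakaryocytic features. Cells had received a control shRNA (Con_sh) or 1 of 2 shRNAs against ZRSR2 (sh1, sh2), and each of the 3 groups held 2 libraries, numbered experiment 1 and 2. The tables list, for each of 241593 introns, the reads across its exon-intron boundaries and the spliced reads that skip it. Retention (MSI) is the boundary reads as a percent of boundary reads plus 2 times the spliced reads. An intron was counted as less retained if its boundary and spliced reads together averaged at least 50, if its retention in each of the 4 ZRSR2 shRNA libraries was below both controls, and if the mean difference was at least 3 percentage points. Of the 116705 introns with at least 50 reads, 891 met this rule, which is 0.763% of them. The same rule in the opposite direction took in 2159 introns, or 1.85%. The introns were thus chosen by their measured retention in all 6 libraries, and their difference from control is described and not tested. The labels do not say whether the 2 experiments were separate transductions, so p-values measure the spread between these libraries, which may be technical.

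An intron is removed from a transcript by the spliceosome, and an intron that stays in the polyadenylated RNA is called retained. Most introns are removed by the major spliceosome, while a small class, the U12-type introns, is removed by the minor spliceosome, in which ZRSR2 helps to recognise the 3′ end of the intron. Retained introns often hold the RNA in the nucleus or expose it to decay, and short introns in compact genes are known to be retained more readily than long ones.

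The 5′ splice sites below show the start of less retained introns, and are printed because U12-type introns are known by their own start, GTATCC or ATATCC in its common form. They come from RefSeq promoter windows on GRCh38.p14, which reach only sites near a transcription start. Each run has 10 exon bases followed by 20 intron bases, and capitals mark the first 6 bases of the intron. The first 6 are sites of less retained introns, and the last 2, PHYH and SNRPE, are sites of more retained introns, shown for contrast.
OAZ3: cggcgcgccgGTACGGctgagcgaaagtat
GORASP1: cctccacgggGTGAGTtgccgccgcggcgc
CCDC77: ctcgcccttgGTAAGGggtcggggaggggc
SSNA1: ctggtcaagtGTGAGCggcgcagccgggac
RNF123: gaggctccggGTGAGTgaggggcggcaggg
UBE2E3: cctccgccagGCAAGCagcgagcacgcgcg
PHYH: cggggctgtcGTATCCtttgggctgcgcgg
SNRPE: gcagcccatcGTATCCtacgcaggatgtca

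A window held the 5′ splice site of 25 of the 891 less retained introns. Of these sites 24 began with GT and 1, in UBE2E3, with GC. GTATCC or ATATCC, read on the strand of the gene only, stood at 0 of the 25, at 2 of the 54 sites of more retained introns (3.7%) and at 5 of all 3183 sites in the windows (0.157%). GTAAGT or GTGAGT, 2 common starts of introns of the major class, stood at 28.0% of the sites of less retained introns and at 25.4% of all sites. The 25 sites are a small part of the introns and all lie near a gene start, so these letters describe the sites that could be read and no others. The 82 nt intron of TCIRG1, a subunit of the vacuolar proton pump, could be read whole, with the first 6 and the last 2 bases in capitals, as an example of the short introns that were frequent in the set.
TCIRG1: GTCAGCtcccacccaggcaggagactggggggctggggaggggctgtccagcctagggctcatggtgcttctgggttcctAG
This intron (chr11:68042864-68042945, plus strand) had retention of 13.8% and 9.92% in the controls, 6.44% and 6.13% with sh1, and 8.25% and 9.36% with sh2. Its 6 values did not overlap between control and shRNA, as the rule requires, and sh2 in experiment 2 came within 1 point of the lower control.

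The libraries held 82986327 to 101120454 spliced reads and 4387311 to 5199693 boundary reads over all introns. Spliced reads of ZRSR2 itself, as CPM of the gene sums, were 27.7 and 23.3 in the controls, 10.7 and 10.7 with sh1, and 10.2 and 12.8 with sh2, with no overlap between control and shRNA (adjusted p of 0.507 in edgeR's quasi-likelihood test). Erythroid markers, 12 of 12 measured, summed to 4640 to 6330 CPM in the controls, 5850 to 12000 in sh1 and 9220 to 20000 in sh2, with the highest value in sh2 of experiment 1. Megakaryocyte markers, 5 of 8 measured, summed to 43.8 to 44.0 CPM in the controls, 81.7 to 94.9 in sh1 and 72.8 to 91.6 in sh2, with no spliced-read sum for GP9, PF4 and PPBP. ITGA2B alone had 40.8 and 41.2 CPM in the controls and 67.8 to 89.1 with shRNA, so this sum is nearly that of 1 gene. Whether these marker levels have a part in the retention values below was not tested.

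The less retained introns had higher control retention than other introns, which the rule in part favours because it uses the control values. Their median retention was 17.4% and 15.4% in the controls, 9.57% and 9.66% with sh1, and 9.88% and 10.9% with sh2. The other 32024 introns with at least 50 reads and a control retention of at least 3% had medians of 7.08% and 6.36% in the controls and 6.0% to 8.15% in the shRNA libraries. The difference from control had a median of 5.43 points, with quartiles of 3.91 and 8.15 points. It reached 10 points in 153 introns, 20 points in 24, and 50.8 points at most. The gap between the lower control and the highest shRNA library was narrower, with a median of 1.63 points, and it was under 1 point in 253 introns. The median SD between the 2 libraries of a group was 1.87 points in the controls, 1.48 in sh1 and 1.33 in sh2.

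**Figure D1:**
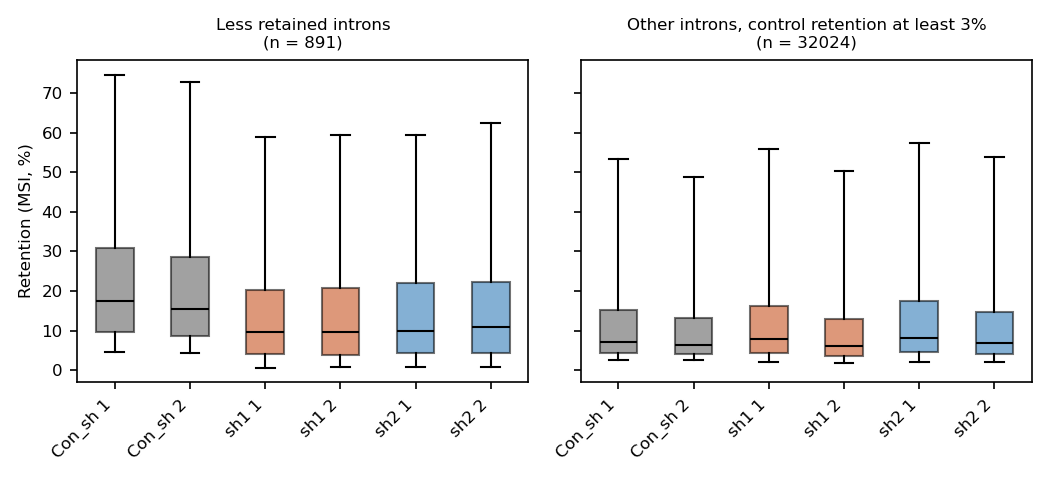
Retention (MSI, %) by library for the 891 less retained introns (left) and for the 32024 other introns with at least 50 reads and control retention of at least 3% (right). Boxes span the quartiles with the median as a line and whiskers reach the 5th and 95th percentiles; on the left the control medians are 17.4% and 15.4% and the shRNA medians 9.57% to 10.9%, a gap that the rule itself sets.

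Introns on the other side of the limits had nearly the same values. MAP7D3 and PLXNB1 lay just inside the 3-point limit, at 3.002 and 3.004 points, and TTC21B and ZNF561 just outside it, at 2.999 points each. RGPD2 and ZHX3 entered with 50 and 50.2 reads on average, while RGPD1, a near-identical copy of RGPD2, and DMC1 stayed out with 49.8 and 49.7. A stricter reading of retention moved the membership more than these limits did. With 2 times the lower boundary count used instead of the sum of both, 731 introns met the rule, and 391 of them were among the 891.

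The share of introns that were less retained varied with the retention in control. It was 0.429% of introns at 3% to 5% control retention, 2.16% at 5% to 10%, 4.69% at 10% to 20%, and 5.85% to 6.47% in the bins above 20%. The mirrored rule gave 2.76% at 3% to 5%, 5.04% at 5% to 10%, and 6.09% to 8.75% above that. More retained introns were therefore the more frequent of the pair in every bin, and the ratio was widest in introns with little retention in control. A limit in percentage points asks for a larger relative change where control retention is low, which lowers the share there by construction.

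Less retained introns were shorter than the rest. Their median length was 615 nt, against 968 nt in the other introns of at least 3% control retention, 1470 nt over all introns of at least 50 reads, and 1360 nt in the more retained set. Introns under 200 nt made up 26.2% of the less retained introns (233 introns), 19.0% of the others with at least 3% control retention and 13.3% of all with at least 50 reads. Of all introns under 100 nt, 1.55% were less retained and 1.36% more retained, and this was the one length class in which less retained introns were the larger group. Among introns of 2000 to 5000 nt the shares were 0.446% and 1.76%. Short introns also had higher control retention, with a median of 2.46% under 100 nt and 1.05% at 2000 to 5000 nt. Within introns of at least 3% control retention the share of less retained ones was 3.52% under 100 nt and 1.93% at 2000 to 5000 nt.

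**Figure D2:**
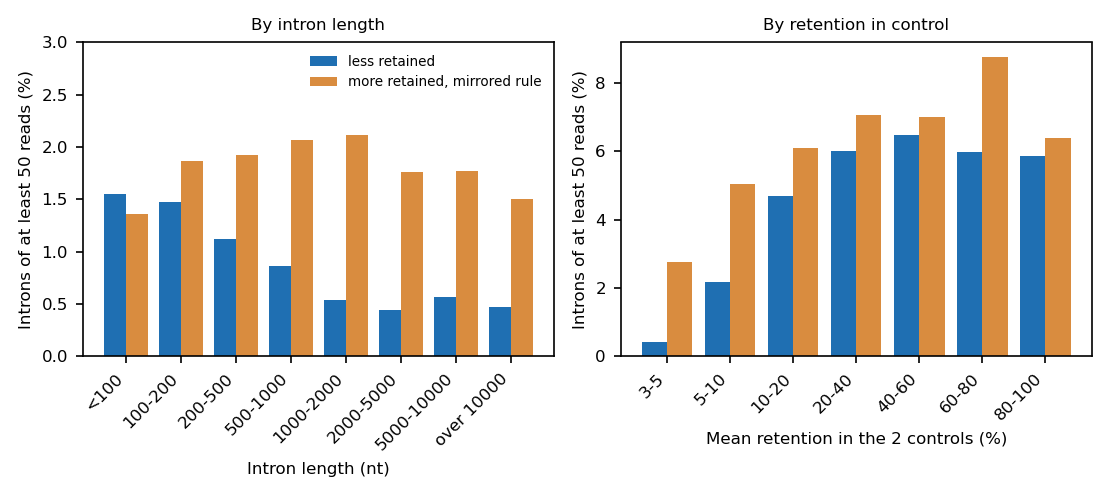
Percent of introns with at least 50 reads that were less retained (blue) or more retained by the mirrored rule (orange), by intron length in nt (left) and by mean control retention in percent (right). Less retained introns are the larger group only under 100 nt, with 1.55% against 1.36%; on the right the blue bars stay at 5.85% to 6.47% above 20% control retention, and the orange bars are higher in every bin.

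Position and gene class set the introns apart less. Protein-coding genes held 90.7% of them, lncRNA genes 3.25% and pseudogenes 4.38%, against 91.4%, 3.48% and 3.28% of the other introns of at least 3% control retention. The first 5′ splice site of the gene was used by 12.7% and the last by 12.3%, against 13.5% and 13.1%. A gene on the opposite strand overlapped 9.54%, against 7.89%. The tables do not separate strands, so for these introns reads of a gene and of its antisense partner cannot be told apart.

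Lower retention can come from fewer boundary reads, more spliced reads or both. Scaled to the spliced reads of each library, boundary reads of the less retained introns had a median log2 ratio of shRNA to control of -0.56, and spliced reads one of 0.28. Over all introns of at least 50 reads these medians were 0.1 and 0.03. Boundary reads were lower and spliced reads higher in 600 introns (67.3%), both were lower in 197 (22.1%), and both were higher in 94 (10.5%). The change in boundary reads was the larger of the pair in 555 introns (62.3%). It was also the larger in 60.1% of the 32024 other introns that met the control-retention limit. The share was 71.4% over all introns of at least 50 reads and 78.4% in the more retained set. A share of this size was thus not particular to the less retained introns. SKIC2 had the lowest boundary ratio, -4.13, and HBBP1 and INSIG1 were among those with more boundary reads and many more spliced reads.

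**Figure D3:**
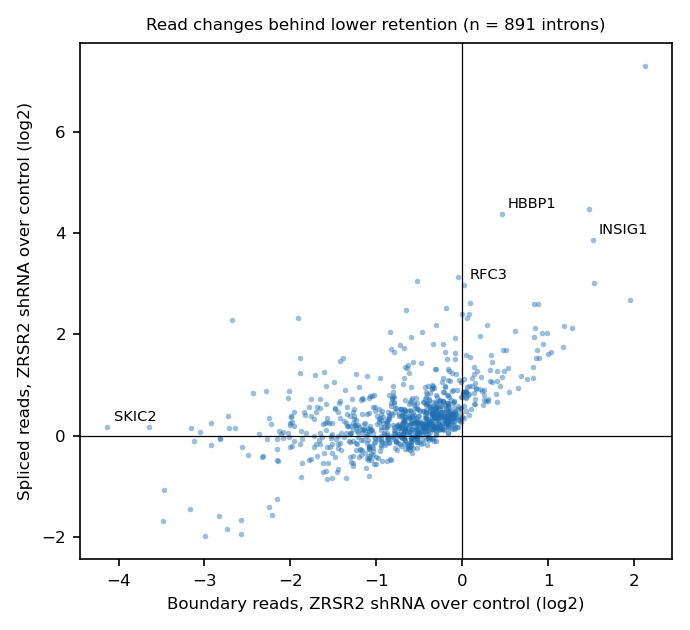
Change in boundary reads (x axis) and in spliced reads (y axis) of the 891 less retained introns, ZRSR2 shRNA over control, as log2 ratios of reads scaled to the spliced reads of each library; each point is an intron. The upper left field, fewer boundary and more spliced reads, holds 600 points, the lower left 197 and the upper right 94, a split that the rule itself shapes.

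The largest differences by the summed boundary reads were in OAZ3, an antizyme that restrains polyamine synthesis and is known from the testis. Its intron at chr1:151763168-151767162 had retention of 69.7% and 56.5% in the controls, 11.1% and 7.69% with sh1, and 15.6% and 15.0% with sh2. Its boundary reads numbered 23 and 26 in the controls and 11 to 27 in the shRNA libraries, and its spliced reads 5 and 10 against 48 to 73. The change lay mostly in the spliced reads. Its intron at chr1:151767300-151770171 had 71.4% and 69.6% in the controls and 14.3% to 29.1% with shRNA. With the lower boundary count taken 2 times these 2 differences, 50.8 and 50.1 points, became 27.8 and 16.4. The intron whose start is printed above (chr1:151763566-151767162) had 23.1% and 27.3% in the controls and 1.92% to 8.88% with shRNA. All 5 introns of OAZ3 with at least 50 reads had lower mean retention with shRNA, and 4 were in the set. OAZ3 overlaps TDRKH, a gene on the opposite strand that also held 2 less retained introns, and the source strand of these reads cannot be told apart.

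TUBB1, the beta-tubulin of megakaryocytes and platelets, had 2 of its 3 introns in the set. The 536 nt intron (chr20:59022954-59023489) had retention of 50% and 34.0% in the controls, 9.93% and 20% with sh1, and 4.23% and 15.7% with sh2. Its spliced reads were 14 and 31 in the controls, 68 and 46 in sh1, and 306 and 51 in sh2, while boundary reads stayed between 15 and 32. With boundary reads in this narrow range, the lowest retention fell, largely by arithmetic, in the shRNA library with the most spliced reads. That library also had the highest erythroid marker sum. Its megakaryocyte marker sum, 91.6 CPM, was below the 94.9 CPM of an sh1 library. Whether either sum has a part in the retention of TUBB1 was not tested. The 104 nt intron downstream had 50% and 32.2% in the controls and 4.12% to 18.7% with shRNA. ITGA2B, the platelet integrin alpha IIb and the other megakaryocyte marker with a less retained intron, had 5.66% and 6.82% in the controls and 1.89% to 4.23% with shRNA. Outside this intron its spliced reads were 40.8 and 41.2 CPM in the controls and 67.8 to 89.1 with shRNA.

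SPINK5, a serine protease inhibitor, had retention of 77.5% and 83.1% in the controls, 38.5% and 49.3% with sh1, and 36.1% and 45.1% with sh2 (chr5:148088606-148089493). The lower control and the highest shRNA library lay far apart, on 8 and 5 spliced reads in the controls. INSIG1, which holds back cholesterol synthesis at the endoplasmic reticulum, had 70.2% and 37.0% in the controls and 13.3% to 34.4% with shRNA. The controls of INSIG1 lay farther apart than the lower control and the highest shRNA library, and without the control of experiment 1 its difference of 34.2 points became 17.6. RFC3, a subunit of the clamp loader of DNA replication, had 100% and 75.2% in the controls and 29.6% to 66.0% with shRNA over an intron of 130869 nt. Under the lower boundary count taken 2 times the difference of RFC3 turned round, to -6.15 points.

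The other introns at the top of the list were of mixed length. UBA7, the activating enzyme of ISG15, had 75.8% and 47.5% in the controls and 27.9% to 36.6% with shRNA over 230 nt. EXOC3L4, a relative of an exocyst subunit, had 59.0% and 49.6% in the controls and 23.8% to 37.7% with shRNA over 153 nt, and 4 of its introns were in the set. ADAM8, a metalloprotease of leukocytes, had 68.8% and 40.3% in the controls and 27.4% to 36.6% with shRNA over 830 nt. The controls of UBA7 and ADAM8 lay far apart, and without the control of experiment 1 their differences of 29.6 and 22.0 points became 15.5 and 7.73. IFT140, a protein of intraflagellar transport, had 76.2% and 63.6% in the controls and 33.3% to 54.5% with shRNA over 7065 nt, but its spliced counts nearly repeat those of an intron of another gene. Such repeated counts were found for 13 of the 891 introns. With the lower boundary count taken 2 times, the difference was 11.9 points in ADAM8, and in IFT140 it was 10.3 in place of 28.0. Of the 212 introns in genes chosen for naming, this setting made the difference more than 1.5 times smaller in 60, and leaving out the control of experiment 1 or of experiment 2 did so in 50 and 14.

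**Figure D4:**
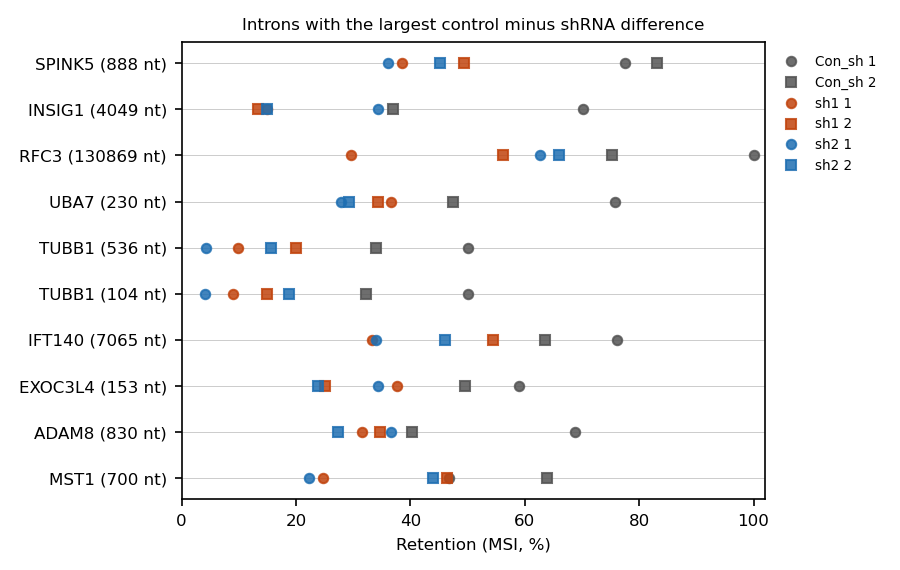
Retention (MSI, %) in each of the 6 libraries for the named introns with the largest difference that lie inside no other listed intron and have at least 5 reads at each boundary in the controls; circles are experiment 1 and squares experiment 2. Every shRNA point lies left of both control points, as the rule requires, and in INSIG1 the controls are at 70.2% and 37.0%.

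The best covered introns lay in ACADVL, SSNA1 and ZNF595, with differences of 3.0 to 5.74 points. The 3 in ACADVL, the very long chain acyl-CoA dehydrogenase of mitochondrial fatty acid oxidation, had 3130 to 3600 reads on average. That at chr17:7224715-7224808, 94 nt long, had retention of 18.9% and 18.2% in the controls, 9.67% and 13.4% with sh1, and 14.3% and 15.6% with sh2. Its boundary reads were 1174 and 1137 in the controls and 735 to 922 with shRNA. Retention of this intron was lower in sh1 than in sh2, and no value overlapped the controls, as the rule requires. SSNA1, a microtubule-associated protein of the centrosome, had 67.8% and 68.3% in the controls and 62.1% to 67.5% with shRNA, a gap of under 1 point. ZNF595, a zinc finger gene with the highest depth of the set at 7940 reads, had 12.4% and 9.47% in the controls and 7.46% to 8.35% with shRNA. It belongs to a family with close copies, between which reads may be shared, and with the lower boundary count taken 2 times its difference of 3.0 points became 0.0587.

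At the other end stood introns with little retention in control. HOOK3, a dynein adaptor, had 3.64% and 3.49% in the controls and 0.0% to 1.02% with shRNA. DAAM1, a formin, had 3.7% and 3.32% in the controls on 4 and 7 boundary reads, and 0.0% to 0.897% with shRNA. FKBP6, an immunophilin of meiosis, was listed at 0 in all 4 shRNA libraries, on 1 and 2 boundary reads in the controls. JDP2, a repressor of AP-1, and LINC01194 had 2.08% to 5.08% in the controls. With the lower boundary count taken 2 times, the difference was 0.0 points in DAAM1, FKBP6 and JDP2, 1.72 in LINC01194 and 1.74 in HOOK3. In 117 of the 891 introns the 2 controls together held fewer than 20 boundary reads, so that a few reads set their values.

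Less retained introns came in groups within genes. The 876 that could be named lay in 648 genes, of which 521 held 1, 80 held 2 and 47 held 3 or more. For 19.8% of the less retained introns, an intron at the next listed 5′ splice site of the gene, on either side, was also less retained. Such a neighbour stood beside 2.35% of the other introns of at least 3% control retention and 1.25% of all with at least 50 reads. A neighbour of this kind can overlap the intron and share a splice site with it, as in OAZ3. In 44 genes 3 or more less retained introns lay apart from each other. These genes held 186 less retained introns, those that overlap each other included. On chromosome 3 an interval of under 200 kb (49684657 to 49809389) held 18 less retained introns, in MST1, RNF123 and UBA7, out of 68 introns with at least 50 reads. Chromosome 16 held the most, with 87. As a share of introns with at least 3% control retention, chromosome 3 had 4.31% and chromosome 19 had 1.35%.

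MST1, which encodes macrophage-stimulating protein, held 11, and all 17 of its introns with at least 50 reads had lower mean retention with shRNA. Pooled over its introns, those in the set included, retention was 50.4% and 53.3% in the controls, 27.1% and 41.7% with sh1, and 34.0% and 47.0% with sh2. The shRNA values of experiment 1 were well below those of experiment 2, and all 4 were below the controls. MST1 has close copies elsewhere in the genome, and how reads were shared between them is not given in the sources used here. RNF123, a ubiquitin ligase gene beside it, held 6, yet its pooled retention was 5.87% and 5.56% in the controls and 5.81% to 6.48% with shRNA. Of its 35 introns 19 had a lower mean with shRNA, so its less retained introns stood in a gene whose other introns went both ways.

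NBEAL2, a protein needed for platelet granules, held 8 of 55 introns, and 45 of the 55 had lower mean retention with shRNA. Its pooled retention was 13.9% and 12.2% in the controls, 9.52% and 11.1% in sh1, and 11.9% and 12.5% in sh2, so sh2 overlapped the controls. ACADVL held 5 of 21, with 20 lower, and a pooled retention of 19.2% and 16.9% in the controls, 13.5% and 15.1% with sh1, and 16.1% and 17.0% with sh2, which overlapped the controls. HBP1, a transcriptional repressor, had lower mean retention in 12 of 12 introns, with pooled values of 11.9% and 8.04% in the controls and 4.1% to 6.23% with shRNA. ATG9B, an autophagy protein, was lower in 8 of 8, with 23.3% and 11.9% in the controls and 4.75% to 8.55% with shRNA. The controls held only 4 to 24 boundary reads for each of these ATG9B introns, so a few reads set their values. Spliced reads of the same introns were 98 to 201 in sh2 of experiment 1, against 12 to 84 in the other libraries. Their mean depth thus leaned on that library. RASA1, a GTPase-activating protein of Ras, was lower in 27 of 28, with 6.68% and 6.4% in the controls, 6.33% and 5.68% with sh1, and 3.66% and 4.72% with sh2. In HBP1, ATG9B and RASA1 the mean was thus lower in nearly all introns with at least 50 reads, while CUL7, a cullin, had lower means in 14 of 26 introns, and SPG11, a lysosomal protein, in 18 of 38.

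**Figure D5:**
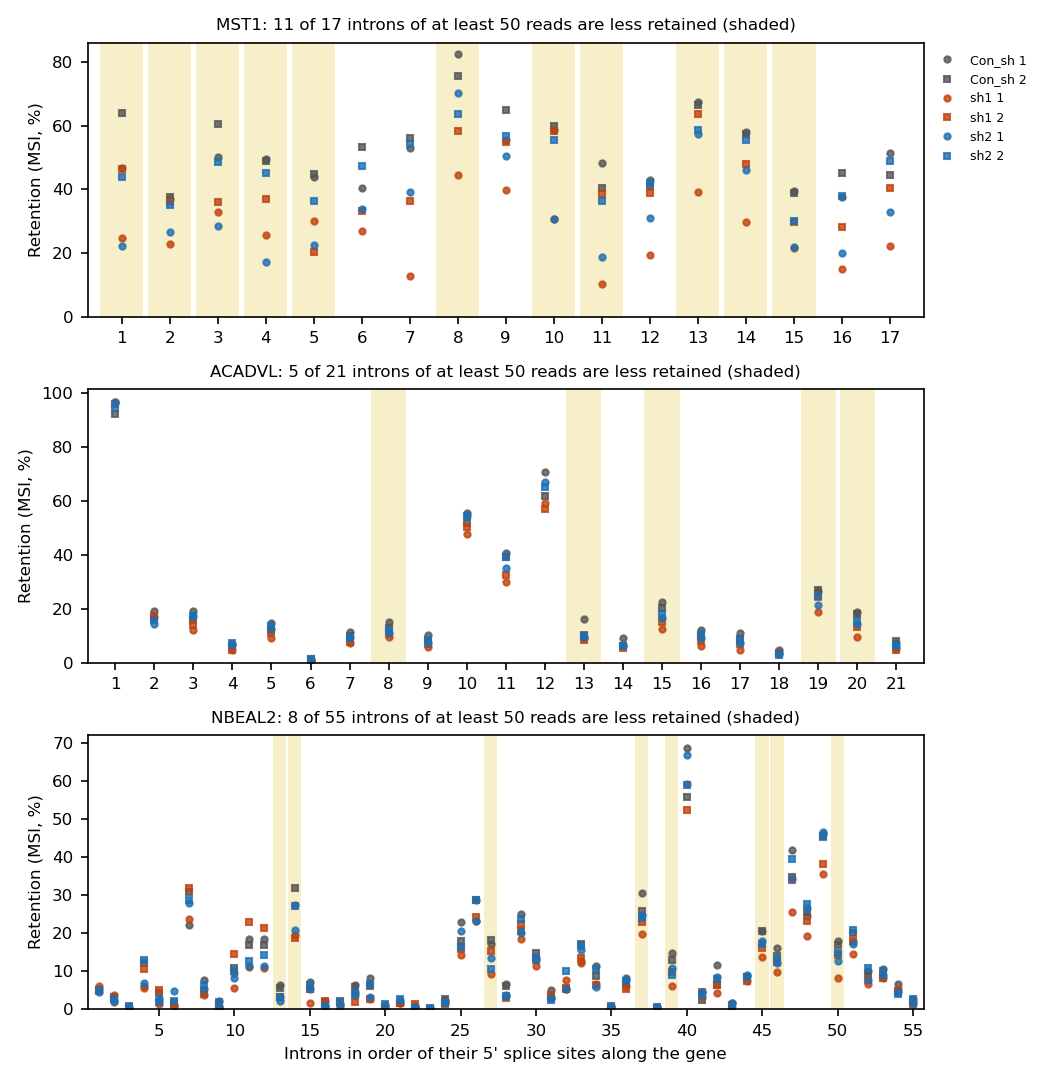
Retention (MSI, %) in each library for the introns of MST1, ACADVL and NBEAL2 with at least 50 reads, in order of their 5′ splice sites; circles are experiment 1, squares experiment 2, and shading marks less retained introns. In MST1 the shRNA points of 11 shaded introns lie below both controls, and in NBEAL2 11 introns have all shRNA points below both controls, 8 of them shaded.

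Over the 44 genes with 3 or more separate less retained introns, retention pooled over all their introns was below both controls in all 4 shRNA libraries in 17, above both in 2, and overlapping in 25. The same split over all genes was not computed. The pooled values include the less retained introns by which the 44 genes were picked, so the rule in part sets this split. Of the 815 other introns of these genes, which the rule did not take, 61.1% had a lower mean with shRNA, against 38.9% of all introns of at least 50 reads outside the set and 46.2% of those with at least 3% control retention. Introns of 1 gene share its reads, so these shares are given as a description.

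CCNT2, a cyclin of the transcription elongation factor P-TEFb, was 1 of the 2 genes with higher pooled retention, 9.06% and 8.26% in the controls and 11.4% to 14.5% with shRNA. Its 3 less retained introns follow each other, and the first of them (chr2:134939063-134942611) had 12.3% and 9.33% in the controls and 2.72% to 6.43% with shRNA. The next (chr2:134942675-134946100) had 25.3% and 24.7% in the controls and 9.02% to 20.3% with shRNA. The third had 56.5% and 52.7% in the controls and 41.7% to 50.6% with shRNA. Of the 8 introns of CCNT2 with at least 50 reads, 6 had a lower mean with shRNA. In 1 of the 8 all 4 shRNA libraries lay above both controls. Retention within this gene thus differed from control in both directions. SMPD4BP, a pseudogene with a close functional copy, was the other, with 8.6% and 9.49% in the controls and 10.8% to 12.7% with shRNA. Yet 16 of its 19 introns with at least 50 reads had a lower mean with shRNA. In 2 of the 19 all 4 shRNA libraries lay above both controls.

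STK36, a kinase linked to hedgehog signalling and cilia, had 3 less retained introns in a row near its 3′ end. That at chr2:218697611-218697853 had 40.7% and 37.1% in the controls, 19.0% and 28.5% with sh1, and 21.1% and 23.8% with sh2. Its pooled retention was 15.3% and 12.1% in the controls and 9.46% to 10.3% with shRNA. GFUS, an enzyme of GDP-fucose synthesis, had 56.1% and 43.3% in the controls and 31.5% to 39.7% with shRNA in its 170 nt intron at chr8:143614454-143614623. For all 4 less retained introns of GFUS the control of experiment 1 was the higher one, and without it the 170 nt intron differed by 6.25 in place of 12.7 points. CASKIN1, a scaffold protein known from neurons, had 12.6% and 11.5% in the controls and 2.89% to 6.12% with shRNA in an intron of 835 nt. AEBP1, a carboxypeptidase-like protein of the extracellular matrix, had 19.5% and 17.7% in the controls and 8.8% to 13.4% with shRNA in an intron of 673 nt, a difference that became 1.61 in place of 7.29 points with the lower boundary count taken 2 times. Spliced reads of AEBP1 were 58.7 and 40.6 CPM in the controls, 10.4 and 25.9 with sh1, and 12.5 and 34.7 with sh2.

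The spliced RNA of the host genes differed from control in both directions. NT5DC4, a gene of the 5′-nucleotidase family, held 7 less retained introns, and its spliced reads outside them were 13.0 and 6.17 CPM in the controls, 11.9 and 4.83 with sh1, and 173.0 and 26.9 with sh2. Its pooled retention was 25.9% and 28.8% in the controls and 20.3% to 23.0% with shRNA, in sh1 as in sh2. CARMIL2, a regulator of actin capping known from T cells, also held 7, with spliced reads of 98.6 and 46.3 CPM in the controls and 10.7 to 24.7 with shRNA. Its intron at chr16:67649312-67649446 had 19.1% and 14.2% in the controls and 2.94% to 12.7% with shRNA, on 106 and 38 boundary reads in the controls and 2 to 16 with shRNA. Over the 627 host genes that could be measured outside their less retained introns, the median log2 change from control was 0.12. The change was above 0 in 64.8% of them, against 49.7% of all genes. Of genes with other introns of at least 3% control retention, 52.9% were above 0. Spliced reads enter retention, so this change shares the contrast that chose the introns. This change and the calls against control are given as a description. Without the control of experiment 2 the host median was 0.07 and the host share 58.5%, and without sh2 of experiment 1 the host median was also 0.07. In edgeR's quasi-likelihood test 0 host genes were called, with 97 of 627 at an unadjusted p under 0.05 against 1512 of all 18171 genes, and 0% of all genes were called. DESeq2 called 15 host genes higher, among them ITGA2B, and 3 lower, CARMIL2, ITPR3 and KIF7, against 1.02% of all genes called. Between sh2 and sh1, edgeR called 0 host genes (48 at an unadjusted p under 0.05, against 957 of all genes) and DESeq2 called 7, against 0.407% of all genes. DESeq2 had 4 of them higher in sh2, C4B, DYSF, PLCD1 and STRA6, and 3 lower, CRYBG1, KIF13B and UNC13A. Fewer cells of a type and less RNA per cell cannot be told apart in these bulk libraries.

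Less retained introns in the beta-globin cluster had far more spliced reads with shRNA than in control. In HBBP1, a globin pseudogene, the intron at chr11:5243329-5243449 had retention of 21.4% and 14.8% in the controls and 0.705% to 1.97% with shRNA. Its boundary reads were 55 and 47 in the controls and 46 to 103 with shRNA, while its spliced reads were 101 and 135 against 1415 to 7251. An intron with no gene name (chr11:5232799-5233990) had 7 and 25 spliced reads in the controls and 1829, 1159, 6998 and 1292 with shRNA. The intron of HBB at chr11:5226800-5226929 had 8 and 29, then 1828, 1155, 7003 and 1292, nearly the same counts in each library. The unnamed intron is 1 of the 13 with repeated counts, and how a spliced read was assigned to introns was not tested.

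Genes of the lists bear on which transcripts held less retained introns. Of 47 measured genes on a list of U12-type intron carriers, written from memory, 3 held a less retained intron, 8 introns in all, and 43 held a more retained one, 74 introns in all. This list, like the others, was chosen with earlier results of these data known, so its counts are a description. Its 47 genes are those with an intron of at least 50 reads, whatever the control retention. Over genes with an intron of at least 3% control retention, 16.1% held a more retained intron, and over genes with a less retained intron 22.8% did (148 of 648). The 3 genes of the U12 list were CHD1L, MAPK12 and PLCB3.

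In MAPK12, the p38 gamma kinase, both directions stood side by side. Its intron at chr22:50256647-50256934 had retention of 41.5% and 36.7% in the controls and 28.6% to 34.0% with shRNA. Downstream in the same gene, the 115 nt intron at chr22:50255695-50255809 had 16.9% and 13.1% in the controls and 36.8% to 52.4% with shRNA. PLCB3, a phospholipase C, held 5 less retained introns, of which that at chr11:64265228-64265309 had 33.0% and 32.6% in the controls and 21.1% to 25% with shRNA. Its more retained intron at chr11:64261666-64261951 had 7.09% and 6.31% in the controls and 13.6% to 38.6% with shRNA. CHD1L, a chromatin remodeller, had 15.3% and 13.5% against 9.46% to 10.9% in its intron at chr1:147267519-147268781, and 1.48% and 2.56% against 5.82% to 11.9% in a more retained intron of the same gene.

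Other lists can be read as shares of their introns with at least 3% control retention, of which 2.71% were less retained over all genes. The share was 4.06% in the U12 list, 3.57% in minor spliceosome genes, 2.38% in snoRNA hosts, 1.14% in the splicing regulators, 11.5% (3 introns of 26) in the megakaryocyte markers, and 0% in the nonsense-mediated decay factors and the erythroid markers. Apart from the U12 list each share rests on 3 introns or fewer. Of 14 minor spliceosome genes, CENATAC alone held 1, with 10.1% and 7.69% in the controls and 4.68% to 6.98% with shRNA, a difference of 3.3 points, or 2.08 with the lower boundary count taken 2 times. Another CENATAC intron (chr11:119010831-119011220) was more retained, with 6.92% and 6.34% in the controls and 11.7% to 16.6% with shRNA. More retained introns numbered 7 in this list, in 3 genes. Of 52 measured splicing regulators whose genes hold regulated introns, HNRNPDL and NKTR held 1 each, and HNRNPDL, an RNA-binding protein, had 47.4% and 40.8% in the controls and 35.3% to 39.1% with shRNA. Of 14 measured snoRNA host genes, SNHG25 held 1, with 99.0% and 98.8% in the controls and 92.7% to 97.9% with shRNA. The 15 nonsense-mediated decay factors and the 12 erythroid markers held none.

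The rule treats both shRNAs alike, but it also requires all 4 of their libraries to lie below both controls, which limits how far sh1 and sh2 can differ in these introns. The counts of calls between the shRNAs are therefore given as a description. Mean retention was lower in sh1 than in sh2 in 529 of the 891 introns. The lowest library was sh1 of experiment 1 in 300 introns, sh1 of experiment 2 in 241, sh2 of experiment 1 in 217 and sh2 of experiment 2 in 133. In edgeR's quasi-likelihood test of boundary against spliced reads, sh2 against sh1, 0 of the 891 were called at an adjusted p under 0.05, where 0.00857% of the 116705 introns were called, 0.006% lower and 0.00257% higher. At an unadjusted p under 0.05 there were 9 (1.01%), against 3.77% of all introns, and DESeq2 also called 0. The median log2 difference was 0.09 over the 891 and 0.14 over all introns, and with boundary and spliced reads scaled separately these became -0.05 and 0.0, so the side on which the median lies depends on the scaling. The unnamed globin intron had the smallest adjusted p, 0.394, and was called lower in sh2 under 5 alternatives, with log2 differences of -2.02 to -3.09 and adjusted p of 0.000475 to 0.0499.

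The rule limits the difference between experiments in these introns in the same way, and an unadjusted p under 0.05 for it occurred in 2.02% of them, against 9.76% of all introns. Experiment 2 against experiment 1 gave 1 called intron of the 891, lower in experiment 2, where 0.464% of all introns were called, 0.424% lower and 0.0394% higher. This was the last intron of SKIC2, a helicase of the complex that feeds RNA to the exosome (chr6:31969421-31969514). Its boundary reads were 53 and 3 in the controls, 0 and 0 in sh1, and 2 and 0 in sh2, with 299 to 498 spliced reads throughout. The log2 difference was -4.44 with an adjusted p of 0.00621 in edgeR's quasi-likelihood test, and it rested on the control of experiment 1. Without the control of either experiment SKIC2 was not called, and the unnamed globin intron was called instead, higher in experiment 2 with a log2 difference of 1.33. The next in order, ZNF780B, STK17A, GFUS and IKBKE, were not called. STK17A, a kinase, had 14.6% and 16.5% in the controls, 6.5% and 12.9% in sh1, and 5.92% and 12% in sh2, with the lower shRNA values in experiment 1. Its difference of 6.23 points became 2.75 with the lower boundary count taken 2 times.

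The same model for both shRNAs against control used the contrast that chose the introns, and its calls are given as a description. It called 0.325% of all introns, 0.012% lower (14 of 116705) and 0.313% higher. Of the 891, 7 were called lower: the OAZ3 intron at chr1:151763168-151767162, both HBBP1 introns, the unnamed globin intron, 2 introns of LRRC37A2 and that of SKIC2. LRRC37A2 belongs to a family of near-identical copies, and reads may be shared between them. The number called ranged widely with the settings, from 1 with the lower boundary count taken 2 times to 21 with boundary and spliced reads scaled separately. All 4 shRNA libraries lay below both controls in 4.16% of the 116705 introns and above both in 7.59%.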

How the data were processed

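RNA-seq of 6 K562 libraries was used. Per the labels' protocols, polyA RNA was selected; for the aligner, the counter and the intron list nothing was given in the sources used here. Tables were separate: the authors deposited 1 table per library, and per the file headers each holds raw counts of reads at the 2 boundaries and of spliced reads, a covered fraction, and a percent (MSI), which was recomputed with a largest deviation of 2.8e-14. The submitters' processing notes name hg19, but 95.6% of introns lay inside a RefSeq gene on GRCh38, against 62.6% and 62.9% after shifts of 100 kb, so names and sequences come from RefSeq GRCh38 tables. Positions are printed as deposited, with starts counted from 1. Names matched 94.6% of the introns listed.

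The less retained introns and the gene lists were chosen with earlier results of these data known. Boundary and spliced counts formed a pair per library, with library as a factor, and were tested with edgeR 4.0.16 (quasi-likelihood, Benjamini-Hochberg over 116705 introns, 0.05), checked on simulated data. Host genes were measured by spliced reads summed over introns that do not overlap and are not in the set, filtered with filterByExpr, scaled with TMM and given as CPM. DESeq2 1.42.0 was the alternative. Ratios of boundary and spliced reads carry a pseudocount of 0.5 reads. Counts carry counting error only at the depths given, since reads are not unique molecules.

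Named were the 10 largest differences outside nested introns with 5 reads at each boundary, the 5 deepest, the 5 lowest in control, calls between shRNAs, the 5 smallest adjusted p for the experiment, at most 3 per list, the introns at the limits, and genes with 3 or more separate introns, of which the text describes the fullest. HBBP1, LRRC37A2, TCIRG1, the unnamed globin intron and the sites printed were picked after their values were seen. Experiment numbers were not taken as pairs. Some items are not reported here.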

Additional observations from a re-analysis of the deposited data

How the results depend on the processing

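The number of less retained introns was 1383 at a limit of 2 points, 494 at 5 points, 1378 with at least 20 reads, 586 with at least 100, and 608 with a covered fraction of at least 0.95 in both controls. Leaving out 1 library gave 1121 to 4592: 2527 and 4592 without the control of experiment 1 or 2, 1560 and 1342 without sh2 of experiment 1 or 2; fewer libraries make the rule easier to meet. Between the shRNAs, the count called (0) became 1 with at least 20 reads, with no filter and with separate scaling, and 0 to 1 without 1 library. For the experiment (1) it became 5 with separate scaling, and 0 with DESeq2 (820 of the 891 had no adjusted p), with the lower boundary count taken 2 times and with no group term; it was 1 without any 1 library. Against control (7) it became 21 with separate scaling, 4 with DESeq2, 1 with the lower boundary count taken 2 times, and 3 to 11 without 1 library, 3 being without the control of experiment 1 and 11 without sh2 of experiment 2. Host genes called became 7 (sh2 against sh1) and 18 (against control) with DESeq2, and 0 to 2 between the shRNAs without 1 library, 2 being without sh2 of experiment 2. Their median log2 between the shRNAs (0.06) was -0.0 to 0.12 without 1 library, -0.0 being without sh2 of experiment 1. With the lower boundary count taken 2 times, 5 of 212 introns in named genes changed direction: RFC3 (-6.15 points), MEG8 (-0.7), PLCG2 (-0.314), ZNF780B (-0.532) and GZF1 (-0.0245), and 61 others moved by more than the control SD. The cause was not tested.

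With the experiment number as a replicate block, calls among the 891 were 1 between the shRNAs (the unnamed globin intron) and 14 against control, and host gene calls were 0 in both contrasts. Same-numbered libraries correlated at 0.0505, 0.107 and 0.104 in their deviations, and the numbers were not taken as pairs. These values cover all introns of at least 50 reads, with a median control retention of 1.26%. Counting error is large there, so a low correlation does not settle whether the libraries were paired. In edgeR's quasi-likelihood test the experiment had an unadjusted p under 0.05 in 9.76% of these introns, and both shRNAs against control in 4.42%. With 2 libraries a group, small differences cannot be told from spread, and boundary reads limit introns with little retention.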
